A study of Homo sapiens with 2 samples.

Results

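Chromosome 19 carries the densest collection of C2H2 zinc finger genes in the human genome, and the ZNF genes among them were followed here in A549, an established cell line from a human lung adenocarcinoma. Members were the genes whose symbol is ZNF, a number and at most 1 further letter, whose locus lies on chromosome 19, and which both deposited tables list. They numbered 163 of the 18812 genes listed in both tables. A further 14 such genes were listed only for the vector library and 7 only for the ATOH8 library. The 2 libraries came from A549 cells stably transduced with a retroviral vector and from A549 cells stably transduced with retroviral ATOH8, the gene of a transcription factor with a basic helix-loop-helix domain. The labels name no clone, no passage and no time after transduction. With 1 library per group every difference below compares these 2 libraries, has no replicate check and carries no p-value.

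Most chromosome 19 ZNF genes arose by tandem duplication and sit in runs of neighbours with similar sequence. A C2H2 finger is a short loop held by a zinc ion between a pair of cysteines and a pair of histidines, and an array of fingers reads DNA. Many of these proteins also carry a KRAB box, which recruits TRIM28 (KAP1), and through it the histone methyltransferase SETDB1 and HP1 proteins, to form repressed chromatin marked by histone H3 lysine 9 methylation. Transposable elements and the ZNF genes themselves are well known targets. Other members lack a KRAB box, and some of these have few fingers.

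The coding sequence of the first finger is shown for the 2 members with the lowest and the 2 with the highest fold, because base composition differed between them as the results below do. Each runs 5′ to 3′ on the coding strand, from GENCODE 29 transcripts on GRCh38, and the capitals mark the cysteine and histidine codons that hold the zinc.
ZNF146: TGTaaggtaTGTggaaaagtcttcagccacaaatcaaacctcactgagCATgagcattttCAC
ZNF302: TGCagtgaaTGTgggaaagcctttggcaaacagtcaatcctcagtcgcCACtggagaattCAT
ZNF581: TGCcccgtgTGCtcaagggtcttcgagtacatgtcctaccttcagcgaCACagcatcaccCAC
ZNF524: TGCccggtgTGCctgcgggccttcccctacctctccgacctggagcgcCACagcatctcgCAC
All 4 stretches were 63 bases long. Their GC content was 41.3% in ZNF146, 47.6% in ZNF302, 57.1% in ZNF581 and 69.8% in ZNF524. Of the 21 codons, 10 ended in G or C in ZNF146 and in ZNF302, 18 in ZNF581 and 21 in ZNF524.

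The tables listed 20966 genes for the vector library and 20870 for ATOH8; no source used here gives the read depth, so no counting interval can be set. The transduced gene stood where the labels place it, with ATOH8 at 0.786 FPKM (vector library) and 182 FPKM (ATOH8 library). FPKM is the authors' estimate of fragments per transcript length and sequencing depth, and pairs of values below give the vector library first. The epithelial keratin genes KRT8 (2381 and 2302 FPKM, vector and ATOH8) and KRT18 (2486 and 2012 FPKM) were abundant in both, whereas the epithelial gene EPCAM was low at 1.70 and 2.23 FPKM. Of 3 leukocyte markers, CD68 stood at 2.14 and 15.4 FPKM, PTPRC was listed for the ATOH8 library alone at 0.0111 FPKM and CD3E was not listed. The endothelial genes PECAM1, CDH5 and VWF were listed for the ATOH8 library alone, at no more than 0.0510 FPKM, and the fibroblast genes PDGFRB, DCN and LUM reached no more than 0.332 FPKM. In bulk RNA of this kind, fewer cells and less RNA per cell cannot be told apart.

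Members were low to moderate in both libraries. Over the 163 members the FPKM had a median of 1.32 in the vector library, with quartiles of 0.525 and 3.16 and a highest value of 57.5. In the ATOH8 library the median was 0.845, the quartiles were 0.367 and 2.08 and the highest value was 33.6. At least 1 FPKM was reached by 101 members in the vector and by 70 in the ATOH8 library. The median over all genes listed in both tables was 3.56 FPKM (vector) and 2.85 FPKM (ATOH8). Summed over members, FPKM came to 489.7 (vector) and 389 (ATOH8), which is 0.0907% and 0.0774% of each library's own sum. Mitochondrial genes held 16.5% of the summed FPKM in the vector library and 24.2% in the ATOH8 library, so these shares also depend on them.

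The 6 most abundant members by mean FPKM were ZNF146, ZNF580, ZNF787, ZNF581, ZNF444 and ZNF428. ZNF146, which encodes a protein made almost wholly of zinc fingers, stood at 57.5 and 12.1 FPKM. It alone gave 11.7% of the members' sum in the vector library and 3.11% in the ATOH8 library. Without ZNF146 the members' sums were 432 FPKM (vector) and 377 FPKM (ATOH8). ZNF787 was at 24.5 and 23.3 FPKM, ZNF444, which encodes a SCAN domain zinc finger protein, at 17.4 and 16.8 FPKM, and ZNF428 at 17.6 and 13.0 FPKM. For ZNF787 and ZNF444 the sign of the fold defined below turned with the scaling, from 0.29 and 0.31 to -0.07 and -0.05 as deposited. ZNF580 (19.7 and 31.2 FPKM) and its neighbour ZNF581 (12.9 and 33.6 FPKM) were both higher in the ATOH8 library. None of the 6 carried a recognisable KRAB box.

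**Figure D1:**
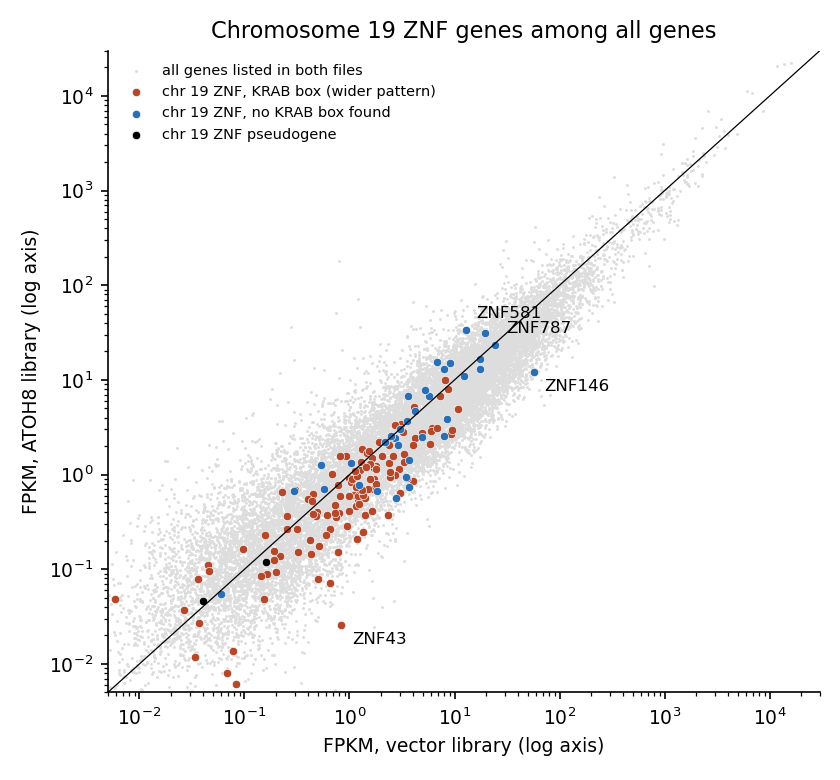
FPKM of every gene in the vector library (x axis, log scale) against the ATOH8 library (y axis, log scale), with 1 point per gene, grey for all genes and coloured for chromosome 19 ZNF genes, and the line of equal values. Members mostly lie under 10 FPKM with ZNF146 far below the line and ZNF581 above it, and 2 members under 0.005 FPKM in a library fall outside the axes.

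Fold changes are given as log2(ATOH8 FPKM + 1) minus log2(vector FPKM + 1), which understates the change of low genes. Over the 8249 genes averaging 5 FPKM or more the median of this value was -0.36, and each fold below is relative to that median gene unless stated otherwise. Averaged over both libraries, 87 members reached 1 FPKM, called measured below, and the other 76 did not. On this relative scale all 6461 genes averaging under 1 FPKM had a median of 0.36. Of the 87, 5 were 2-fold or more above the median gene and 5 were 2-fold or more below it, which is 5.75% in each direction. Among all 12351 genes at that level the background was 12.8% above and 9.47% below by that much, so neither share of members exceeded it at this setting. Under some settings given below, a share of members did exceed its background. With the FPKM as deposited, without centring, the split was 2 higher (background 6.24%) and 12 lower (background 19%).

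The members as a whole lay close to the median gene. Their median log2 fold was 0.039 with quartiles of -0.44 and 0.40, beside 0.058 with quartiles of -0.47 and 0.61 for all genes. Among the 87, 47 had a positive log2 fold and 40 a negative one. Before centring, 62 of the 87 (71.3%) had a lower FPKM in the ATOH8 library, beside 64.7% of all genes at this level. The sign of so small a median turned with the scaling, to -0.031 with values rescaled to TPM, -0.042 without mitochondrial genes and -0.045 with a pseudocount of 0.1. The 178 ZNF genes on other chromosomes had a median of -0.043, with 4 above and 9 below by 2-fold or more. The 739 other chromosome 19 genes had a median of 0.48, with 176 above and 12 below by 2-fold or more, at a median transcript GC content of 60.1% against 45.0% for the members. After the GC correction described below their median was 0.08, beside 0.15 for the members. Chromosome 19 zinc finger genes under other names, such as ZFP and ZSCAN genes, were too few to describe, with 4 at this level.

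**Figure D2:**
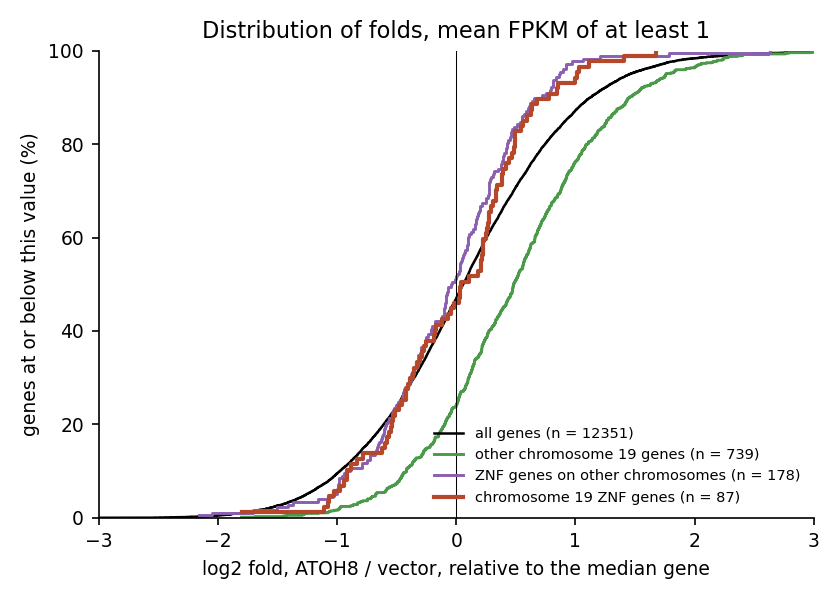
Cumulative share of genes (y axis, percent) at or below each log2 fold relative to the median gene (x axis) for genes averaging 1 FPKM or more, with 1 line per set. The line of the 87 chromosome 19 ZNF genes runs close to that of the 178 ZNF genes on other chromosomes, and that of the 739 other chromosome 19 genes is shifted to the right, with a median of 0.48.

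The counts differed between levels. From 1 to under 5 FPKM, where 66 members lay, 0 were above and 2 below by 2-fold or more, against 15.5% and 4.78% of the 4102 genes in that band. From 5 FPKM up, where 21 members lay, 5 (23.8%) were above and 3 (14.3%) below by 2-fold or more, against 11.5% and 11.8% of 8249 genes. The more abundant members were also richer in GC, with a median transcript GC content of 57.8% in the upper band and 44.5% in the lower one. With a pseudocount of 0.1, 8 members were above (background 16%) and 13 below (background 13.5%) by 2-fold or more. The share below was then larger than its background.

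ZNF146 was the lowest measured member by this fold. It lies on chromosome 19 at 36214602 to 36238774, plus strand (GRCh38, GENCODE 29), and its 57.5 and 12.1 FPKM gave a log2 fold of -1.80. Next came ZNF302 (34677639 to 34686397, plus strand), at 9.29 and 2.72 FPKM, with a log2 fold of -1.11. Its neighbour ZNF181 (34734155 to 34745378, plus strand) stood at 4.02 and 0.866 FPKM, a log2 fold of -1.07. ZNF181 and ZNF302 had 95.1% identical bases over 1208 aligned bases, which is part of their coding sequences of 1845 and 1434 bases. Of the coding windows described below, 6.74% in ZNF181 and 8.74% in ZNF302 were shared with another gene. Reads from shared windows could be counted for another gene. ZNF180 (44474428 to 44500524, minus strand) stood at 3.71 and 0.748 FPKM, a log2 fold of -1.07, and ZNF780A (40069152 to 40090938, minus strand) at 9.42 and 2.99 FPKM, a log2 fold of -1.03. Just inside 2-fold were ZNF507 (7.91 and 2.53 FPKM, -0.98), ZNF544 (3.02 and 0.631 FPKM, -0.94) and ZNF121 (2.79 and 0.565 FPKM, -0.92). A GC correction subtracts the trend of fold with transcript GC content over all genes averaging 1 FPKM or more. After it, ZNF146 (-1.30) alone of these 8 was below by 2-fold or more, and all 8 had a negative value. ZNF114 (2.31 and 0.370 FPKM, -0.91) came next, at -0.92 after the GC correction. With a pseudocount of 0.1 ZNF114 was lower than ZNF146, at -1.97 beside -1.85.

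ZNF581 was the highest member. It lies at 55635459 to 55645622, plus strand, and its 12.9 and 33.6 FPKM gave a log2 fold of 1.67. ZNF580 (55635016 to 55643469, plus strand) overlaps it on the same strand, and stood at 19.7 and 31.2 FPKM, a log2 fold of 0.997 that falls just short of 2-fold. The authors' estimates could have split reads between these genes. ZNF524 (55600022 to 55603138, plus strand) was at 6.87 and 15.3 FPKM, with a log2 fold of 1.41. ZNF446 (3.59 and 6.73 FPKM, 1.11), which encodes a SCAN domain protein, ZNF358 (9.13 and 15.2 FPKM, 1.03) and ZNF579 (7.98 and 13.1 FPKM, 1.01) also passed 2-fold. ZNF585A (0.816 and 1.56 FPKM, 0.85) and ZNF865 (5.25 and 7.78 FPKM, 0.85) completed the 8 highest. After the GC correction all 8 had a positive value, and ZNF581 (1.23) and ZNF585A (1.34) passed 2-fold. With the FPKM as deposited, ZNF581 (1.31) and ZNF524 (1.05) alone of these 8 did.

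**Figure D3:**
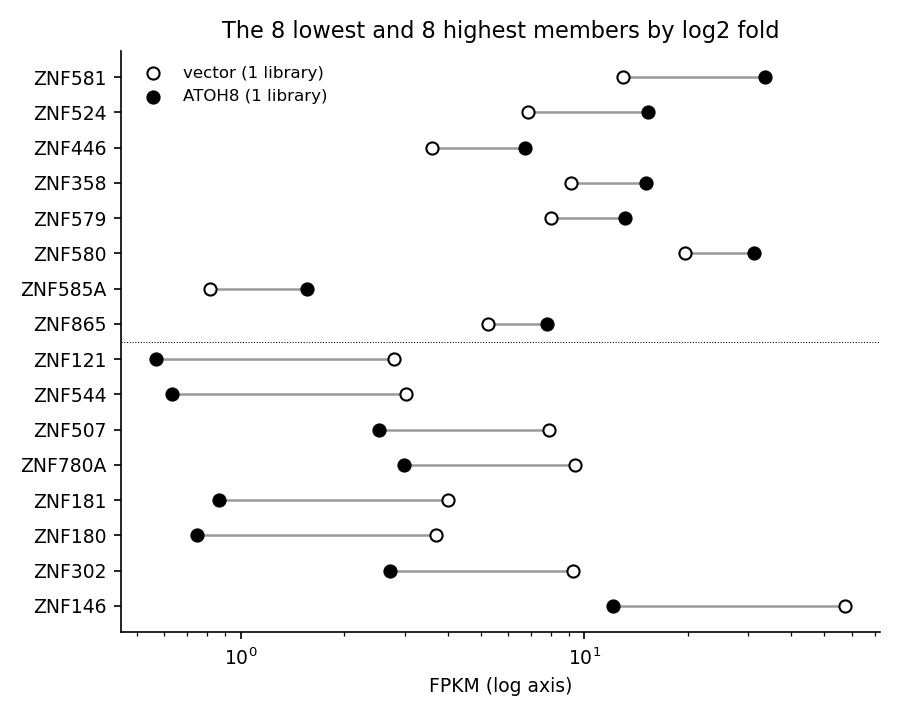
FPKM (x axis, log scale) in the vector library (open circles) and the ATOH8 library (filled circles) for the 8 members with the highest and the 8 with the lowest log2 fold among the 87 measured members (rows), with 1 library per circle. ZNF146 runs from 57.5 to 12.1 FPKM, and 7 of the 8 highest members are above 3 FPKM in both libraries.

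The extreme members differed in build as well as in fold. The 8 highest had a median transcript GC content of 63.3% and a median of 6 fingers, and 1 of them, ZNF585A, carried a KRAB box by both patterns described below. The 8 lowest had a median transcript GC content of 39.9% and a median of 10.5 fingers, and 4 of them carried a KRAB box by the wider pattern but only ZNF780A by the narrow one. Their longest transcripts had a median length of 4710.5 bases in the lowest and 2426.5 bases in the highest. The locus string overlapped another listed gene for 7 of the 8 highest and 3 of the 8 lowest, which are the genes whose reads the authors' estimates could have split.

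Fingers and KRAB boxes were counted in the translated coding sequences of GENCODE 29, which gave 161 members a coding sequence, the other 2 being pseudogenes. Fingers were read as cysteine pairs 2 to 4 residues apart, a spacer of 12 residues and histidine pairs 3 to 5 residues apart. The number of fingers ran from 0 in ZNF738 to 29 in ZNF850. A narrow pattern for the KRAB box found it in 101 members, and a wider pattern, written after the data were seen because the narrow one missed ZNF224 and its neighbours, found it in 127. By the wider pattern, the 57 measured members with a box had a median log2 fold of -0.073, with 0 above (background 12.8%) and 3 below (background 9.47%) by 2-fold or more. The 30 without a box had a median of 0.30, with 5 above and 2 below, against the same backgrounds. By the narrow pattern the medians were 0.074 with a box (42 members) and 0.035 without (45 members), so the separation depended on which genes the pattern took.

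Neither pattern found a KRAB box in the 5 members that were 2-fold or more above the median gene. A box that departs from both patterns would be missed, so members without a match may still carry one. The members without a box by the wider pattern were also GC-rich, with a median of 59.2% against 43.5% for those with one. After the GC correction the order of the groups turned, to -0.08 without a box and 0.20 with one. Fold was also set against finger number. Across the 87 members, which are genes of the same 2 libraries and no independent replicates, the Spearman correlation of log2 fold with finger number was -0.06 and the Pearson correlation was -0.07. With the GC-corrected fold the sign turned, to 0.13 (Spearman) and 0.19 (Pearson).

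Fold followed base composition among the members much as it did among all genes. The Spearman correlation of log2 fold with transcript GC content was 0.53 across the 87 members, 0.67 across 177 ZNF genes on other chromosomes and 0.55 across 12319 genes with a known transcript. All genes at this level were split by GC content into 4 bins of equal size. In the lowest bin, up to 42.1%, the 25 members had a median log2 fold of -0.48, beside -0.57 for the 3080 genes there, and 22 of the 25 lay below the median gene. In the next bin, up to 48.5%, the 33 members had a median of 0.039 beside -0.086. In the third bin, up to 56.5%, the 9 members had a median of 0.26 beside 0.29. In the highest bin, the 20 members had a median of 0.39 beside 0.57, and 18 of the 20 (90%) lay above the median gene, beside 80.7% of all genes there. After the GC correction the median over members was 0.15 beside 0.09 for all genes, with 4 above (background 9.88%) and 2 below (background 4.75%) by 2-fold or more. Those 6 were ZNF585A, ZNF581, ZNF226 and ZNF761 above, and ZNF146 and ZNF653 below. The part of base composition in each fold was not tested.

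**Figure D4:**
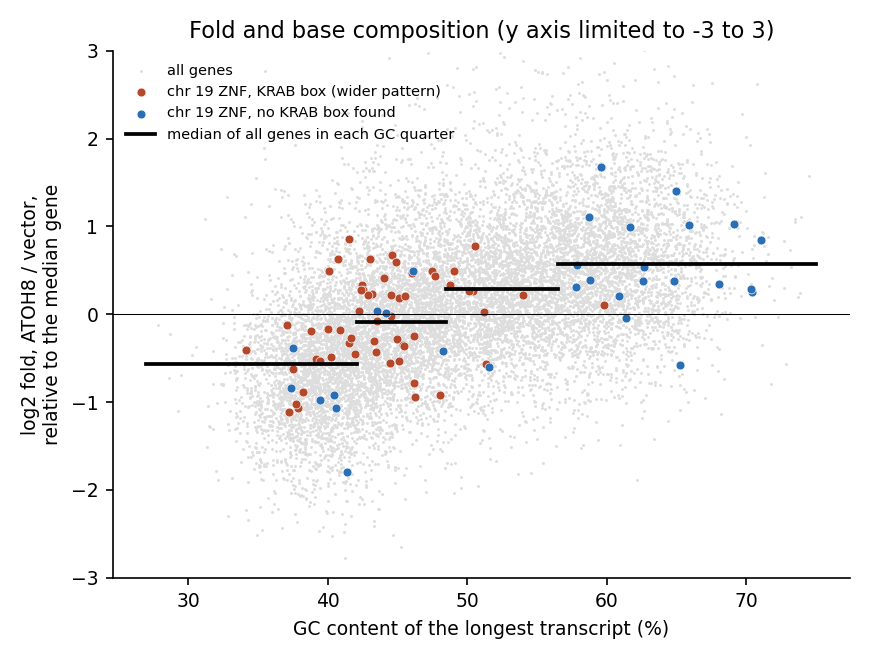
Log2 fold relative to the median gene (y axis) against the GC content of the longest transcript (x axis, percent) for genes averaging 1 FPKM or more, grey for all genes and coloured for members, with black bars at the median of all genes in each of 4 GC bins. The members climb with GC content along with the grey points, from a median of -0.48 in the lowest bin to 0.39 in the highest, and 37 other genes fall beyond the y axis.

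Along the chromosome, members were grouped into 16 runs, broken where the gap between neighbours exceeded 1 Mb. The run nearest the end of the long arm, from ZNF628 to ZNF446 (55476332 to 58481230), held 51 members, of which 34 were measured. Its median log2 fold was 0.30, with 27 above the median gene and 7 under it, 4 of the 27 by 2-fold or more. The run from ZNF557 to ZNF846 (7069444 to 9793180) on the short arm had 9 members at that level, a median of 0.34 and 6 above the median gene.

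A further 4 runs had negative medians and held at least 4 measured members each. From ZNF575 to ZNF296 (43525497 to 45076588), a run of 25 members with 11 at the level, the median was -0.19 and 8 of 11 lay below the median gene. From ZNF565 to ZNF573 (36182060 to 37817300), the run that holds ZNF146, the 9 measured members had a median of -0.51 with 6 of them below. From ZNF175 to ZNF331 (51571298 to 53580269), all 17 members carried a KRAB box by the wider pattern, and the 6 measured ones had a median of -0.30 with 5 below. From ZNF302 to ZNF792 (34677639 to 34964049) the 4 measured members had a median of -0.80. Each of these 4 lower runs had a median transcript GC content between 39.5% and 42.9%, and the GC-corrected medians were 0.022, 0.11, 0.18 and -0.35 in the order given. Such a GC content was not particular to them. The run from ZNF653 to ZNF791, with 4 measured members, had 42.8% GC and a median of 0.13 (0.52 GC-corrected). The run from ZNF557 to ZNF846 had 43.5% (0.36 GC-corrected) and that from ZNF628 to ZNF446 had 48.9% (0.26 GC-corrected).

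Within the last run, a stretch of 9 consecutive members was singled out after its values were seen. It runs from ZNF628 through ZNF579, ZNF524, ZNF865, ZNF784, ZNF580, ZNF581 and ZNF787 to ZNF444 (55476332 to 56160893). All 9 lay above the median gene, between 0.25 and 1.67 with a median of 0.85. Neither pattern found a KRAB box in any of them, and their transcripts had 57.8% to 71.1% GC. The 6 other measured genes of the same stretch had a median of -0.27 at a median GC content of 60.2%, with 2 above the median gene and 4 below. After the GC correction, 5 of the 9 members were above the median gene and their median was 0.18. As deposited, 6 of the 9 had a higher FPKM in the ATOH8 library. The 25 measured members beyond ZNF444 had a median of 0.22, with 18 above and 7 below.

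**Figure D5:**
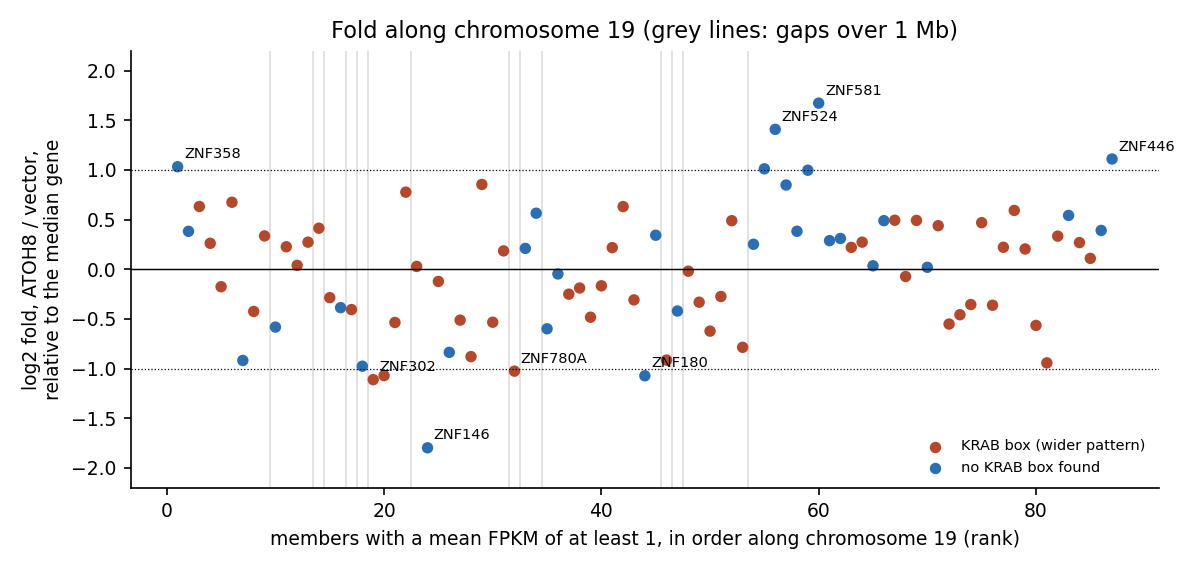
Log2 fold relative to the median gene (y axis) of the 87 measured members, ranked by position along chromosome 19 (x axis), with grey lines at gaps over 1 Mb, dotted lines at 2-fold and colour for the KRAB box. The block of 9 members from ZNF628 to ZNF444 lies wholly above 0, and the members that hold the lowest values, ZNF146 and ZNF302, lie in the middle runs.

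Members with a described role were spread from the low end to above the median gene. ZNF274, which binds the ends of other ZNF genes and brings SETDB1 to them, was at 6.84 and 3.13 FPKM, a log2 fold of -0.56. ZNF331, imprinted in some tissues, was at 5.85 and 2.10 FPKM (-0.79). ZNF224, a cofactor of WT1, was at 5.99 and 2.90 FPKM (-0.48, but 0.11 after the GC correction), and ZNF473, which takes part in histone pre-mRNA processing, at 4.95 and 2.47 FPKM (-0.42). ZNF675, which encodes an inhibitor of TRAF6 signalling, was at 1.17 and 0.208 FPKM (-0.49), under the mean of 1 FPKM. Its fold was 0.26 after the GC correction, where all genes under 1 FPKM had a median of 0.30, but -1.67 with a pseudocount of 0.1.

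ZNF417 and ZNF587, which repress endogenous retroviruses, were close to the median gene or above it. ZNF417 stood at 1.44 and 1.19 FPKM (0.20, but -0.15 as deposited), and ZNF587 at 2.70 and 3.35 FPKM (0.59). Their coding sequences share 99.1% of 1725 aligned bases, so their values cannot be read as independent. ZNF585A and ZNF585B, with 96.1% identical bases over 2307 aligned bases, had log2 folds of 0.85 and 0.13, with ZNF585B at 0.611 and 0.378 FPKM, under the mean of 1 FPKM and at -0.22 as deposited. ZNF91, a repressor of SVA and L1 retrotransposons, was listed only for the ATOH8 library, at 0.0140 FPKM. ZNF93 and ZNF808 were not analysed here.

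Most members shared little coding sequence with one another, with a median of 0% of windows shared. Of the 161 with a coding sequence, 65 shared at least 1 window of 50 bases with another listed ZNF gene or a chromosome 19 zinc finger gene of another name, 17 shared more than 10% of their windows and 2, ZNF417 and ZNF587, more than 50% (up to 66.6%). The locus string overlapped another listed gene for 97 of the 163 members. Among the 33 measured members whose locus overlapped no other gene, 1 was above and 3 were below by 2-fold or more, and the median log2 fold was 0.11. The locus overlapped another gene for 4 of the 5 members above by 2-fold or more, beside 62.1% of measured members and 53.4% of all genes at that level.

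The 76 members below a mean of 1 FPKM had a median of 0.482 FPKM (vector) and 0.278 FPKM (ATOH8). Their FPKM was higher in the ATOH8 library for 22 of them and lower for 54, which is 71.1%, beside 48.7% lower among all 6461 genes under that level and 67.2% among the 67 ZNF genes there on other chromosomes. Picked out after their values were seen, ZNF43 was at 0.837 and 0.0257 FPKM and ZNF845 at 1.33 and 0.246 FPKM. The log2 fold of both turned positive after the GC correction (0.29 for ZNF43 and 0.014 for ZNF845). Under 1 FPKM the GC-corrected median was itself 0.30 for all genes and 0.54 for the 76 members. Both genes thus stayed below the typical value at this level. With a pseudocount of 0.1 and no GC correction, the folds were -2.51 for ZNF43 and -1.66 for ZNF845. ZNF554 (0.226 and 0.649 FPKM) and ZNF837 (0.533 and 1.27 FPKM) were higher in the ATOH8 library. The 21 genes listed for 1 library only were lower still, with the highest, ZNF256, at 0.166 FPKM in the vector library.

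The authors' deposited table of their own comparison marked 26 of the 163 members down, which is 16%, and 0 up. Over the 18812 genes listed in both libraries it marked 10.2% down and 4.33% up. That table lists genes with a q-value under 0.05, and with 1 library per group its q-values set 1 library against the other, not the conditions. The smallest q-values in the authors' deposited table were 1.53e-06 for ZNF180, 3.1e-06 for ZNF302 and 0.000185 for ZNF43. Of the 26 members that the authors' deposited table marked down, 18 were measured and 8 averaged under 1 FPKM. Their median transcript GC content was 40.4%, against 43.5% for the other 137 members. ZNF581 and ZNF524, the members above 2-fold as deposited, were not among the genes of the authors' deposited table.

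The corepressor genes that KRAB zinc finger proteins work through mostly lay below the median gene. All 25 genes listed for the TRIM28 complex and its modifiers, HP1, HUSH and histone H3 lysine 9 methylation were measured. None was above the median gene by 2-fold or more (0 of 25, background 12.8%) and 5 were below by as much, which is 20% beside a background of 9.47%. All but ATF7IP averaged 5 FPKM or more, where the backgrounds were 11.5% above and 11.8% below. The median log2 fold of the 25 was -0.41, with 20 negative values. After the GC correction it was -0.47, with 2 below by 2-fold or more (background 4.75%). TRIM28 itself, at 266 and 189 FPKM, had a log2 fold of -0.13, and of -0.67 after the GC correction. SETDB1 was the highest of the list, at 10.5 and 11.5 FPKM (0.48), and its partner gene ATF7IP was at 3.33 and 2.57 FPKM (0.08, but -0.28 as deposited). After the GC correction ATF7IP was the highest, at 0.67 beside 0.34 for SETDB1.

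Of the HP1 genes, CBX3 was at 151 and 36.6 FPKM (-1.66), CBX1 at 60.3 and 25.1 FPKM (-0.87) and CBX5 at 27.7 and 16.2 FPKM (-0.38). The value of CBX5 turned to 0.086 after the GC correction, and the other two stayed negative. SUV39H2, a histone H3 lysine 9 methyltransferase gene, was the lowest at 13.9 and 2.09 FPKM (-1.91). The histone deacetylase gene HDAC2 and the chromatin remodeller gene SMARCAD1 were also below by 2-fold or more. After the GC correction SUV39H2 (-1.39) and CBX3 (-1.02) still were. The authors' deposited table marked 8 of the 25 down (background 10.2%) and 0 up (background 4.33%). These backgrounds cover all 18812 genes, 6461 of which averaged under 1 FPKM, and were not matched to the higher level of the 25.

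Promoters of the members were read from RefSeq (GRCh38.p14), as 250 bases before to 50 after the start RefSeq gives each gene, and 146 of the 163 members matched by symbol. The start of the GENCODE 29 gene lay inside this window for 103 of the 146, and for 29 it was more than 1000 bases from the RefSeq start. ATOH8 belongs to a family whose proteins bind E-boxes, written CANNTG, a motif that reads the same on both strands. An E-box was present in 56.8% of the members' promoters and in 68.7% of all 35116 promoters. Of measured members with a promoter, it was present in 23 of 43 above the median gene and in 23 of 35 below it. The promoters of the highest and the lowest member are shown because they bound the range of folds, with E-boxes in capitals. The ZNF146 window is chr19:36214856-36215155 and the ZNF581 window chr19:55643399-55643698, both on the plus strand. The RefSeq start lies 504 bases into the GENCODE 29 gene for ZNF146 and 8190 bases into it for ZNF581, so neither window flanks the gene start given above, and the ZNF581 window also covers the 3′ end of ZNF580.
ZNF146: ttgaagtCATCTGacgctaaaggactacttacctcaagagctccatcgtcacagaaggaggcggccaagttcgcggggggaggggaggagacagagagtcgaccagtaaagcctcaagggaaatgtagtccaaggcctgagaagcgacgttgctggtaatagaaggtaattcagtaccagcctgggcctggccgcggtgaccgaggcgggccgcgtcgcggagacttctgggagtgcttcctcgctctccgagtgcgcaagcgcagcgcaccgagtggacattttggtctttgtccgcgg
ZNF581: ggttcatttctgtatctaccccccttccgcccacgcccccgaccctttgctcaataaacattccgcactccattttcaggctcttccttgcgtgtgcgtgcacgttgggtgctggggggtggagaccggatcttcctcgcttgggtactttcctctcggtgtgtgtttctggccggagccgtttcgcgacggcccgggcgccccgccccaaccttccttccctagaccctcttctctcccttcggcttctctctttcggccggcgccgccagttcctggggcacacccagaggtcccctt
The ZNF146 window held 1 E-box and 24 CpG dinucleotides at 59.0% GC. The ZNF581 window held 0 E-boxes and 23 CpG dinucleotides at 62.3% GC. The transcripts were further apart, at 41.4% GC for ZNF146 and 59.6% for ZNF581. A match to the motif is a description of these letters and shows no binding.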

How the data were processed

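RNA sequencing covered 2 A549 libraries, 1 vector and 1 ATOH8, with Trizol RNA per the labels. Of tools, HISAT2, Cufflinks 2.2.1 and CASAVA stand in the submitters' processing notes, next to hg38 (GRCh38) as the build, with no role given. Depth, annotation release, strand setting and the handling of reads that map to several genes: not given in the sources used here. The authors deposited FPKM per gene for each library, per the file headers. No gene was listed at 0, so an unlisted gene was not read as 0. Their own comparison was deposited as a further table, with a p-value, a q-value and a log2 ratio, a column of other range in which a ratio to 0 is an extreme number. A further 2 columns of per-library values there could not be tied to a sample by name and stayed out.

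Tables were joined by gene identifier, and fold, centring and level were computed as the report states, with Python 3.11.15 and pandas 2.3.3. No test was run, since 1 library per group gives no spread. GC content came from the longest GENCODE 29 transcript, for 99.7% of genes at the level, and the GC correction took off a lowess fit of log2 fold on GC content (statsmodels 0.14.6, fraction 0.3) before centring. The gene bodies of 161 members lay within the files' loci, and the RefSeq promoters use the same build. The procedure was tested on simulated data. Fingers and KRAB boxes came from translated GENCODE 29 coding sequences in place of the RefSeq proteins first chosen. Coding sequences were aligned with Biopython 1.88. The members, the lists and the alternatives were chosen with earlier results of these data known. Named members were the 8 highest, the 8 lowest and the 6 most abundant at a mean FPKM of at least 1, and 12 with a described role. Alternatives were the pseudocount, the filter, the centring, TPM, leaving out mitochondrial genes, the GC correction and loci without overlap. The wider KRAB pattern was added after seeing the data.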

Additional observations from a re-analysis of the deposited data

How the results depend on the processing

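No paired analysis was possible because each group has 1 library. For the same reason no library could be left out, and the depth behind each FPKM is unknown. With the share of all genes in brackets, the members at least 2-fold higher numbered 5 of 87 (12.8%), and 8 with a pseudocount of 0.1 (16%), 2 with a pseudocount of 5 (5.17%), 2 as deposited (6.24%) and 1 of the 33 with loci free of overlap (13.6%). Those at least 2-fold lower numbered 5 of 87 (9.47%), and 13 with a pseudocount of 0.1 (13.5%), 1 with a pseudocount of 5 (4.25%), 3 of 21 from 5 FPKM up (11.8%), 12 as deposited (19%), 11 with TPM (11.6%), 12 without mitochondrial genes (12.3%), 2 with the GC correction (4.75%) and 3 of the 33 with loci free of overlap (10%). The median log2 fold of the members, 0.039, was -0.045 with a pseudocount of 0.1, 0.17 with a pseudocount of 5, 0.22 without a filter, 0.29 at a mean FPKM of at least 5, -0.32 as deposited, -0.031 with TPM, -0.042 without mitochondrial genes, 0.15 with the GC correction and 0.11 with loci free of overlap. Its difference from ZNF genes on other chromosomes, 0.082, stayed positive under each of these, at 0.049 and 0.070 with a pseudocount of 0.1 and 5, 0.18 without a filter, 0.24 at a mean FPKM of at least 5, 0.050 with TPM, 0.042 without mitochondrial genes, 0.13 with the GC correction and 0.16 with loci free of overlap. The median of members with a KRAB box was 0.074 by the narrow and -0.073 by the wider pattern. The members' share at least 2-fold lower was above that of all genes from 5 FPKM up and with a pseudocount of 0.1. It was also above with TPM and without mitochondrial genes. The share at least 2-fold higher was above that of all genes only from 5 FPKM up. The cause of these shifts was not tested. The named members that were 2-fold or more from the median gene kept their sign under each alternative that gave them a value.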
